A study of Mus musculus with 24 samples.

Results

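The interferon-induced gene families and the interferon regulatory factors (IRFs) were followed in RNA-seq of mouse bone marrow-derived macrophages (BMDMs), which are macrophages grown from marrow cells. Members were taken by symbol, with no measured value in the rule: all listed genes whose symbol begins with Ifit, Ifitm, Oas, Oasl, Gbp, Irf or Irgm followed by a digit, and Isg15, Usp18, Rsad2, Iigp1, Igtp, Tgtp1, Tgtp2, Bst2, Ifih1, Ddx58 and Ifi44. This gave 59 of the 18740 genes listed in the 24 libraries. They were 10 guanylate-binding proteins (Gbp), 6 immunity-related GTPases (IRG: Irgm1, Irgm2, Igtp, Iigp1, Tgtp1 and Tgtp2), 6 Ifit, 7 Ifitm, 11 Oas or Oasl and 9 Irf genes, 7 single genes, and 3 genes that the letters of the rule also take. These 3, Irf2bp1, Irf2bp2 and Irf2bpl, encode proteins named for binding IRF2 and are no IRFs. Mx1 and Mx2 also belong to the rule and were not analysed here.

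Interferons signal through JAK kinases to STAT proteins. Type I interferon acts mainly through a complex of STAT proteins with IRF9 that binds the interferon-stimulated response element (ISRE), and IFN-γ acts through STAT dimers at the gamma-activated site (GAS). The genes so induced arm a macrophage against microbes: GBPs and IRGs are GTPases that attack the vacuoles in which bacteria and parasites hide, IFIT proteins bind viral RNA, IFITM proteins block the fusion of viruses with cell membranes, and OAS enzymes sense double-stranded RNA and switch on RNase L. IRFs are the transcription factors that start and shape this response.

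WT BMDMs were set beside DRD5-/- BMDMs in the study, each with and without dopamine (DA), under M1 and M2 stimulation. The cells came from 10-week-old C57BL/6 mice, all male in this study, and the DRD5-/- line, which lacks the dopamine receptor D5, was made with CRISPR-Cas9. The M1 stimulus was 100 ng/ml LPS with 50 ng/ml IFN-γ, the M2 stimulus 10 ng/ml each of IL-4 and IL-13, and both lasted 12 h; DA was given at 20 μM. The 8 groups were M1 WT, M1 WT with DA, M1 DRD5-/-, M1 DRD5-/- with DA and the same 4 for M2, with 3 libraries each. No group was left without LPS and IFN-γ or IL-4 and IL-13, so "untreated" means without DA throughout, and all M1 groups, controls included, received an interferon. The study's methods take the marrow from tibias and femurs and the tissue label says bone, while the growth protocol in the labels speaks of colons. The sources used here do not say what a replicate was, a mouse or a culture, so the p-values measure only the spread between these libraries, which may be technical.

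Values are FPKM as deposited, fragments scaled to the length of the transcript and to the mapped fragments of the library. FPKM correct for length, so that levels of different genes can be set side by side. The files hold no read counts and the absolute depth is unknown. An estimate from the steps of the lowest values gave 0.928 to 1.03 of the stimulus median for each library. It left out large ratios between libraries, so that a library of far lower depth could have gone unseen. The macrophage markers were present in all libraries (8 of 8 above an FPKM of 1), and no T, NK or B cell marker reached an FPKM of 1. Drd5 itself was listed only in M2, at 0 in 10 of 12 libraries and at most 0.06, so that the genotype could not be checked on it. In bulk RNA, fewer cells of a kind and less RNA per cell cannot be told apart.

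The promoters of many members hold letters that match the ISRE or the GAS, and a few are printed because they carry both or belong to genes described below. RefSeq promoter windows (GRCm38.p6, 250 bases before to 50 after an annotated start) were found for 48 of the 59 members and 27025 genes in all. The ISRE was searched as GAAANNGAAA and the GAS as TTCNNNGAA, both on either strand and with overlapping matches counted. An ISRE match was present for 27 of the 48 members (56.25%) and for 3.99% of all genes, and a GAS match for 15 members (31.25%) and 9.55% of all genes. All 5 Gbp, all 5 IRG and 5 of 6 Ifit genes with a window held an ISRE match. By contrast, 4 of 8 Oas, 2 of 7 Ifitm and 1 of 8 Irf genes did. The 5 Gbp genes were those of chromosome 3, and Gbp4, Gbp6, Gbp8, Gbp9, Gbp10 and Usp18 had no window. A window of Ifit1bl2 overlaps that of Ifit1 on the opposite strand, and the 2 ISRE matches in them are the same bases. Of the IRFs, Irf1, Irf2 and Irf8 held a GAS match. A match is a description of letters, not a shown binding site.

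The 150 bases before the start, 5′ to 3′, with the matched motifs in capitals, are printed for 3 genes with an ISRE match only and for 4 IRG genes with both motifs (GRCm38.p6). The ISRE can lie in either direction, so that it reads GAAA or TTTC at its ends.
Ifit1, chr19:34640739-34640888, plus strand: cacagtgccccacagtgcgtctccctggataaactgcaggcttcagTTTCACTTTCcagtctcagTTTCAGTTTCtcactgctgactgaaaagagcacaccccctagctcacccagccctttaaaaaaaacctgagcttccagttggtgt
Isg15, chr4:156200819-156200968, minus strand: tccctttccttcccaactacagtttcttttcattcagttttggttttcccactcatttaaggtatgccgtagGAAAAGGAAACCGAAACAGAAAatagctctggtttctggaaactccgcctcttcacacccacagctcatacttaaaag
Gbp2, chr3:142620513-142620662, plus strand: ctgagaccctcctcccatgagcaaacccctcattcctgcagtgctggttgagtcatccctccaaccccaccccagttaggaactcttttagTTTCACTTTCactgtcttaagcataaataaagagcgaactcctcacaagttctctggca
Igtp, chr11:58199406-58199555, plus strand: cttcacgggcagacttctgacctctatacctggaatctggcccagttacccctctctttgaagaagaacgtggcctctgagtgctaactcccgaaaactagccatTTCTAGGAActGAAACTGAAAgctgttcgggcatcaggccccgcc
Irgm2, chr11:58214827-58214976, plus strand: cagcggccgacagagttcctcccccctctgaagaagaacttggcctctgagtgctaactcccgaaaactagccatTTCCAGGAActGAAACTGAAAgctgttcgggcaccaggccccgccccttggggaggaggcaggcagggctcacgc
Tgtp1, chr11:48992247-48992396, minus strand: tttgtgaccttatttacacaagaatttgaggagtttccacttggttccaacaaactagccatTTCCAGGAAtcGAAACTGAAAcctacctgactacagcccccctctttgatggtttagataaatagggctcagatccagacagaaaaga
Tgtp2, chr11:49064213-49064362, minus strand: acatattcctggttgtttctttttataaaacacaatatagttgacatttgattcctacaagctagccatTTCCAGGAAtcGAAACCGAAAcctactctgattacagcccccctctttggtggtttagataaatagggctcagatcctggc
Isg15 held 3 ISRE matches that overlap, and Ifit1 held 2 that do not. In Igtp, Irgm2, Tgtp1 and Tgtp2 the GAS match was followed after 2 bases by an ISRE match. This tandem occurred in the windows of 5 of the 27025 genes, these 4 and Gm12185. The order and spacing that were counted are those of these 4 genes, so the count is no separate support. The 4 genes lie on chromosome 11 and are of one family, so they are not independent cases, and reads of Tgtp1 and Tgtp2 may have been shared between them.

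The members were far more expressed in M1 than in M2. A description only can be given of this difference, because M1 and M2 have separate gene lists, and any batch that goes with the stimulus cannot be told apart from it. The members made up 3.45% to 3.72% of the FPKM sum of an M1 library and 0.355% to 0.534% of that of an M2 library. Of the 51 members that were tested under either stimulus and listed under both, 46 (90.2%) were higher in all 12 M1 libraries than in all 12 M2 libraries, beside 19.0% of the 11143 genes chosen the same way. Among the 46, Gbp2b, Gbp4, Gbp8, Iigp1, Tgtp1, Ifit1bl1, Ifit1bl2, Ifit3b and Oas1f were chosen through M1 alone. For these genes the choice itself favoured M1. Gbp2 had a median FPKM of 1796 in M1 and 5.49 in M2, Rsad2, the antiviral protein viperin, 1026 and 3.24, Irf7, the main inducer of type I interferon genes, 1172 and 23.1, and Gbp4 737 and 0.07. Gbp2b was at 0 in 11 of 12 M2 libraries and Tgtp1 in 8 of 12, and Gbp10 was not listed in M2.

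**Figure D1:**
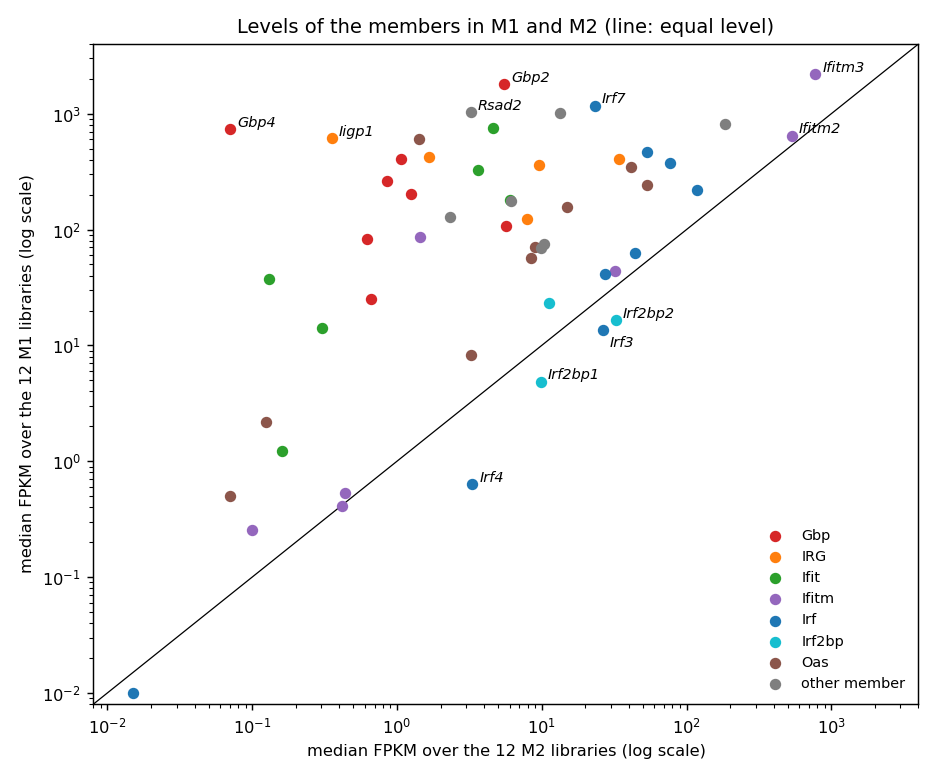
Median FPKM of each member over the 12 M1 libraries (vertical, log scale) against the 12 M2 libraries (horizontal, log scale), coloured by family, for the 54 members with a median above 0 in both. Nearly all points lie above the line of equal level, and of the tested members only Irf3, Irf4, Irf2bp1 and Irf2bp2 lie below it.

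A few members did not follow. Higher in all M2 than in all M1 libraries were 4 of the 51 (7.84%), beside 49.2% of the 11143 genes. Of these 4, Irf4 was chosen through M2 alone. Irf4, which is needed for much of the response to IL-4, was higher in all M2 than in all M1 libraries (median 3.31 against 0.63), as were Irf3, the IRF that cells hold ready before infection (26.4 against 13.5), Irf2bp1 (9.84 against 4.84) and Irf2bp2 (32.4 against 16.5). Ifitm2 overlapped between the stimuli at medians of 648 in M1 and 532 in M2, and Ifitm3 was the most expressed member under both, at 2191 and 772. Ifitm2 and Ifitm3 together made up 60.6% to 62.1% of the members' FPKM in untreated M2 WT libraries.

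For the tests, limma was run per stimulus on log2(FPKM + 1) of the genes that reached an FPKM of 1 in 3 or more of its 12 libraries. The threshold was an adjusted p under 0.001 together with a 1.2-fold change. Changes below are on this log2 scale, which understates those of low genes. In M1, 51 members were tested of 10040 genes, and in M2 42 of 10735, with 41 in both. All 51 reached an FPKM of 1 in each of the 12 M1 libraries, and 35 of the 42 in each of the 12 M2 libraries. Ifitm5, Ifitm7, Ifitm10, Oas1d, Oas1e and Oas1h were among those tested in neither.

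Past the threshold, DA in M1 WT BMDMs raised one branch of the GBPs and some IFIT genes and lowered Usp18, Irf8 and Oasl1. Of the 51 tested members, 13 were past the threshold (25.5%), beside 14.3% of all tested genes. The 9 that rose, beside 4.73% of all genes, were Gbp8, Ifit1bl1, Gbp4, Gbp10, Ifit3b, Gbp9, Ifit3, Gbp6 and Igtp. The 4 that fell, beside 9.6% of all genes, were Usp18, Irf8, Oasl1 and Gbp2b. The median change of the members was −0.0042 and that of all genes −0.067 (0.070 and −0.0026 with median-of-ratios scaling). Under that scaling the split was 11 higher and 3 lower: Gbp2 and Ifitm6 were then past the threshold and Gbp2b was not. It also moved the share of all genes past the threshold that were higher from 33.0% to 56.0%.

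The 10 Gbp genes sit in 2 clusters, and these differed in how many of their genes rose past the threshold. Gbp5, Gbp7, Gbp3, Gbp2b and Gbp2 lie on chromosome 3 (chr3:142496934-142638008, GRCm38.p6), and Gbp8, Gbp9, Gbp4, Gbp10 and Gbp6 on chromosome 5 (chr5:105012513-105295871). All 5 genes of the chromosome 5 cluster rose with DA in M1 WT BMDMs, with a median change of 0.48. On chromosome 3, none of 5 rose past the threshold, Gbp2b fell, and the median change was 0.10. There Gbp2, Gbp3, Gbp5 and Gbp7 were still higher in all DA-treated than in all untreated WT libraries, by less than 1.2-fold. With median-of-ratios scaling Gbp2 was past the threshold (0.32) and Gbp2b was not. In the test of the difference between genotypes, given below, Gbp2 was past the threshold and Gbp9 of chromosome 5 was not. The split by chromosome was noticed after the values were seen and was not tested. The chromosome 5 genes are close paralogs, so reads may have been shared among them.

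Gbp8 stood at 27.7, 25.4 and 27.9 in untreated WT, 50.4, 48.9 and 46.5 in DA-treated WT, 25.2, 24.1 and 25.2 in untreated DRD5-/- and 22.9, 23.5 and 21.8 in DA-treated DRD5-/- BMDMs. All DA-treated WT libraries lay above the other 9, and Gbp8 rose by 0.83 (SE 0.043, adjusted p = 2.47e-09). Gbp4 stood at 753, 759.8 and 772 in untreated WT, 1089.7, 1066 and 1053 in DA-treated WT, 686, 668 and 693 in untreated DRD5-/- and 671, 691 and 720.4 in DA-treated DRD5-/- BMDMs, and the DA-treated WT libraries were the highest. Gbp4 rose by 0.49 (SE 0.028, adjusted p = 5.89e-09). Gbp10 stood at 29.6, 29.4 and 29.7 in untreated WT, 41.2, 42.3 and 41.4 in DA-treated WT, 26.1, 25.5 and 26.8 in untreated DRD5-/- and 27.6, 27.5 and 28.8 in DA-treated DRD5-/- BMDMs. It rose by 0.48 (SE 0.031, adjusted p = 1.64e-08), and the groups of WT did not overlap. Gbp9 stood at 108, 107 and 113 in untreated WT, 140.3, 139 and 135 in DA-treated WT, 97.8, 91.2 and 96.6 in untreated DRD5-/- and 95.9, 96.8 and 109 in DA-treated DRD5-/- BMDMs, and it rose by 0.33 (SE 0.045, adjusted p = 2.96e-05). Its DRD5-/- libraries with DA ranged up to the level of untreated WT. Gbp6, at 276 ± 6.72 in untreated and 334 ± 5.76 in DA-treated WT BMDMs (SD, n = 3), rose by 0.28 (SE 0.030, adjusted p = 3.39e-06).

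On chromosome 3, Gbp2, the most expressed Gbp, changed by 0.24 (SE 0.024, adjusted p = 1.58e-06), just under the 1.2-fold limit. Gbp2b stood at 8.82, 9.34 and 9.08 in untreated WT, 7.15, 7.04 and 7.55 in DA-treated WT, 8.69, 8.46 and 8.72 in untreated DRD5-/- and 8.82, 8.40 and 8.41 in DA-treated DRD5-/- BMDMs. It fell by 0.29 (SE 0.043, adjusted p = 7.16e-05), against the direction of its cluster, and was the least expressed Gbp gene in M1. With median-of-ratios scaling its change was −0.22 and missed the threshold.

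**Figure D2:**
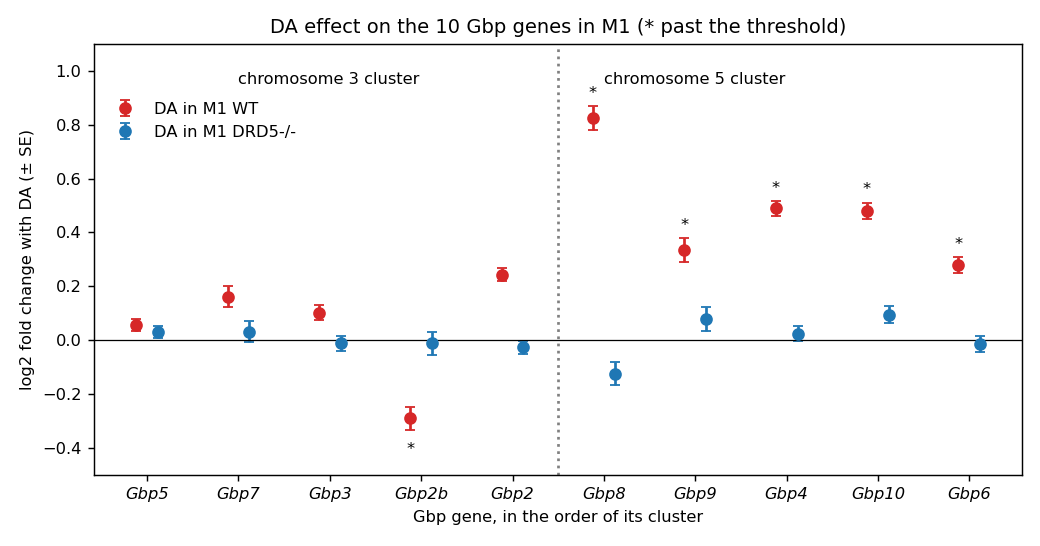
Change with DA on the log2(FPKM + 1) scale (vertical, ± SE) for the 10 Gbp genes in M1, placed in the order of their clusters on chromosomes 3 and 5, in WT (red) and DRD5-/- (blue) BMDMs; stars mark genes past the threshold. The 5 chromosome 5 genes rose in WT, from 0.28 to 0.83, and no gene passed the threshold in DRD5-/-.

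Of the Ifit genes, which form a cluster on chromosome 19 (chr19:34550550-34662981), Ifit1bl1, Ifit3b and Ifit3 rose and Ifit1, Ifit2 and Ifit1bl2 did not pass the threshold. Ifit1bl1, an Ifit1-like gene, stood at 37.5, 38.2 and 42 in untreated WT, 67.4, 64.2 and 64.1 in DA-treated WT, 36.9, 37.0 and 36.5 in untreated DRD5-/- and 36.6, 36.7 and 33.8 in DA-treated DRD5-/- BMDMs. It rose by 0.72 (SE 0.043, adjusted p = 8.17e-09), and the DA-treated WT libraries lay far above the other 9. The annotated span of Ifit1bl1 takes in Ifit3b, Ifit1bl2 and Ifit1, and reads may have been shared with such Ifit genes. Ifit3b stood at 14.5, 14.0 and 15 in untreated WT, 19.7, 18.7 and 19.8 in DA-treated WT, 13.4, 12.9 and 13.7 in untreated DRD5-/- and 12.7, 14.2 and 13.7 in DA-treated DRD5-/- BMDMs. It rose by 0.40 (SE 0.046, adjusted p = 7.20e-06), though its difference between genotypes lost the threshold without any of several libraries. Ifit3, its near-copy, with which it may share reads, rose by 0.31 (SE 0.035, adjusted p = 5.59e-06). The IRG gene Igtp, also called Irgm3, which guards host membranes against other IRG proteins, went from 369 ± 10.7 to 444 ± 10.7 (SD, n = 3) and rose by 0.27 (SE 0.029, adjusted p = 3.95e-06), just over the 1.2-fold limit. The other 5 IRG genes were not past the threshold.

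**Figure D3:**
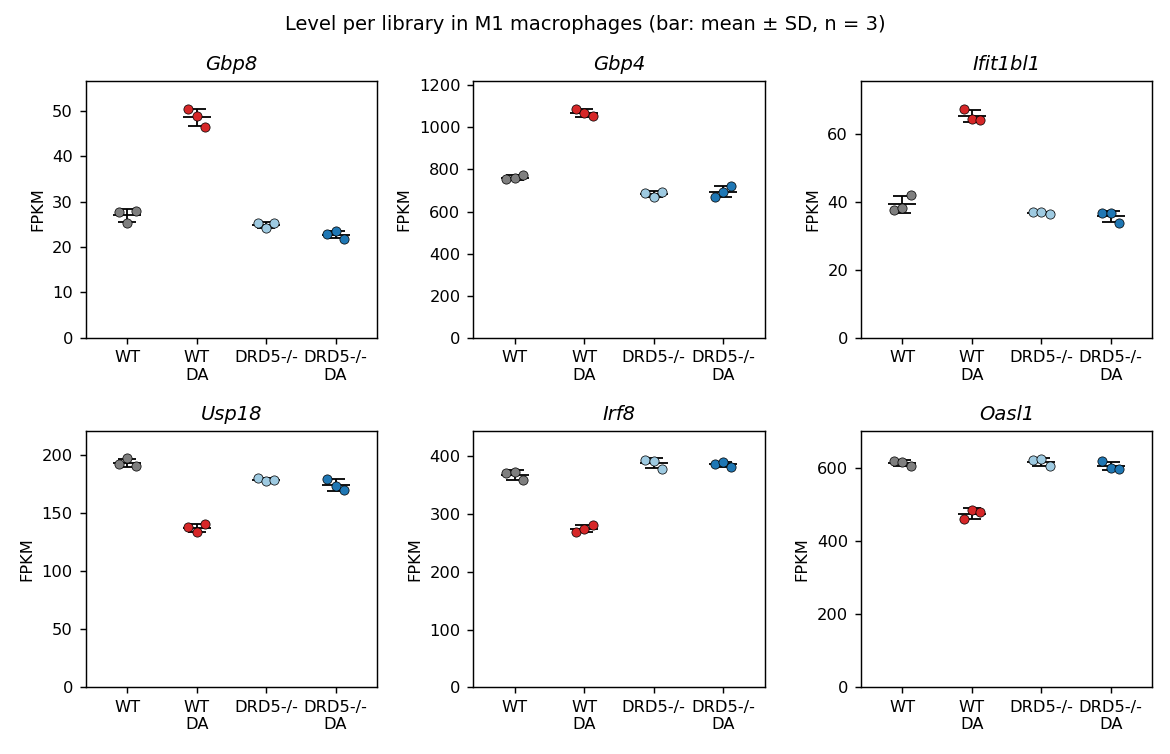
FPKM of 6 members in each M1 library (vertical axis from 0), by genotype and treatment (horizontal), with the mean and SD of the 3 libraries as bars. The 3 DA-treated WT libraries lie above the other 9 for Gbp8, Gbp4 and Ifit1bl1 and below them for Usp18, Irf8 and Oasl1.

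Usp18 (chr6:121245906-121270917), which strips ISG15 from proteins and restrains the type I interferon receptor, stood at 192, 197 and 190.2 in untreated WT, 138, 133 and 140.2 in DA-treated WT, 180.0, 178 and 178 in untreated DRD5-/- and 179, 173 and 169 in DA-treated DRD5-/- BMDMs. Usp18 fell by 0.49 (SE 0.028, adjusted p = 4.88e-09), with no overlap between DA-treated WT and any other library. Irf8 (chr8:120736358-120756694), the transcription factor of the monocyte and macrophage lineage, stood at 371, 374 and 359 in untreated WT, 268, 275 and 281 in DA-treated WT, 394, 392 and 379 in untreated DRD5-/- and 387, 390.3 and 382 in DA-treated DRD5-/- BMDMs. Irf8 fell by 0.42 (SE 0.026, adjusted p = 1.32e-08), and the DRD5-/- libraries, with or without DA, all lay above those of WT. Oasl1, an OAS-like protein known to hold back the translation of Irf7, stood at 619, 615 and 605 in untreated WT, 459.6, 486 and 481 in DA-treated WT, 621, 624 and 605 in untreated DRD5-/- and 618, 601 and 597 in DA-treated DRD5-/- BMDMs. Oasl1 fell by 0.37 (SE 0.026, adjusted p = 5.45e-08), while the other 7 tested Oas genes were not past the threshold.

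Irf8 was the one IRF past the threshold in this comparison. Irf1, the IRF most directly induced by IFN-γ, stood at 458, 465 and 461 in untreated WT, 504, 499 and 507 in DA-treated WT, 468, 472 and 474 in untreated DRD5-/- and 476, 461 and 463 in DA-treated DRD5-/- BMDMs. Its change was 0.13 (SE 0.022, adjusted p = 2.89e-04): all DA-treated WT libraries were above the others, by less than 1.2-fold. Irf7 (chr7:141263183-141266499) stood at 1176, 1165 and 1142 in untreated WT, 998, 1055 and 1053 in DA-treated WT, 1211, 1243 and 1190.0 in untreated DRD5-/- and 1223, 1215 and 1168 in DA-treated DRD5-/- BMDMs. Its change was −0.17 (SE 0.029, adjusted p = 3.10e-04), again with no overlap but under 1.2-fold. Irf9, the DNA-binding part of the type I interferon complex, stood at 40.5, 41.8 and 42.2 in untreated WT, 39.7, 39.2 and 37.3 in DA-treated WT, 41.1, 42.7 and 42.4 in untreated DRD5-/- and 42.6, 40.7 and 41.1 in DA-treated DRD5-/- BMDMs, and its DA-treated WT libraries were the lowest, with a change of −0.097. Irf3 stood at 13.1, 14.3 and 14.0 in untreated WT, 13.1, 13.6 and 14.2 in DA-treated WT, 13.2, 13.6 and 12.9 in untreated DRD5-/- and 13.3, 12.2 and 13.8 in DA-treated DRD5-/- BMDMs, and the groups overlapped.

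Neutrophil and myeloid precursor markers moved with the groups in M1: their summed FPKM was 32.9 to 42.5 in untreated WT, 53.3 to 64 in DA-treated WT, 14.3 to 18 in untreated DRD5-/- and 17.2 to 19.8 in DA-treated DRD5-/- libraries. Of the 5 markers, S100a8 and S100a9 reached an FPKM of 1, Ly6g and Mpo did not pass 0.33, and Elane was at 0 in all 12 libraries. The part of these cells in the M1 results was not tested. The 8 macrophage markers summed to 7482 to 7600 in untreated WT, 8170 to 8245 in DA-treated WT and 7263 to 7700 in DRD5-/- libraries.

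In M1 DRD5-/- BMDMs, no member passed the threshold with DA, and neither did any other gene (0% of 10040). At an unadjusted p under 0.05, 4 of 51 members and 569 of all genes were counted by limma. The members' changes ran from −0.12 (Gbp8) to 0.10 (Ifitm6). A test of whether DA acted unequally in WT and DRD5-/-, on the libraries of both single effects, put 12 of 51 members past the threshold (23.5%), beside 8.38% of all genes. With median-of-ratios scaling the members split in the same numbers, while the share of all genes past the threshold that were higher moved from 38.2% to 63.5%. For 9 of them, beside 3.2% of all genes, the change was more positive in WT, led by Gbp8 at 0.95 (SE 0.061, adjusted p = 5.95e-08) and Ifit1bl1 at 0.77 (SE 0.061, adjusted p = 5.02e-07). For Usp18, Irf8 and Oasl1, beside 5.18% of all genes, it was more negative in WT, with differences of −0.45 (SE 0.039, adjusted p = 9.90e-07) for Usp18, −0.41 for Irf8 and −0.34 for Oasl1.

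Without DA, the 2 genotypes did not differ past the threshold for any member in M1, beside 0.936% of all genes. At an unadjusted p under 0.05, 33 of 51 members and 2557 of all 10040 genes were counted by limma. The members' median difference was −0.086 and that of all genes −0.013. These libraries also serve as the controls of both DA effects. All 10 Gbp, all 6 Ifit and all 6 IRG genes had a difference below 0, of at most 0.20, and 6 of 7 Irf genes one above 0. Signs were not counted over all genes, so that these counts have no background to be read against. Of the Irf genes, Irf2, a repressor of interferon-induced genes, had the largest difference, 0.27 (SE 0.044, adjusted p = 0.0014), and was past the fold but not the p limit. Gbp5, at −0.15 (SE 0.022, adjusted p = 5.31e-04), was past the p but not the fold limit.

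In M2 WT BMDMs, DA lowered IFITM genes, Irgm1, Gbp2, all tested Ifit genes and the factors Irf1, Irf4 and Irf8. Of the 42 tested members, 19 were past the threshold (45.2%), beside 46.3% of all tested genes, so the share as a whole was that of the background. By direction, 16 members fell (38.1%), beside 20.4% of all genes, and 3 rose (7.14%), beside 25.9%. The falls include Gbp6, which passed the filter through the untreated WT libraries alone. The rises include Gbp7, which passed it through the DA-treated WT libraries alone. The signs of both were so fixed by the filter. With median-of-ratios scaling 19 fell and 3 rose, the added ones being Irf2bp1, Irf9 and Irgm2. The members' median change was −0.23 and that of all genes 0.031. The members' summed FPKM was 2529 to 2658 in untreated and 1777 to 1827 in DA-treated WT libraries. Without the Ifitm genes, the sums were 958 to 969.6 and 884 to 907, so that most of the loss in sum was that of the Ifitm genes.

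Ifitm2, Ifitm3 and Ifitm6, which lie close together on chromosome 7 (chr7:140954837-141016892), fell. On the log2(FPKM + 1) scale the falls of Ifitm6 and Ifitm3 were the largest of those past the threshold. Ifitm1, at 1.97 ± 0.37 without and 0.72 ± 0.46 with DA (SD, n = 3), was not past it, with a change of −0.82 (SE 0.19, adjusted p = 0.0012). With a pseudocount of 0.1 its change of −1.55 was larger than that of Ifitm3 (−1.01). Ifitm6, an IFITM gene expressed in myeloid cells, stood at 35.6, 37.8 and 35.6 in untreated WT, 3.84, 4.76 and 5.06 in DA-treated WT, 28, 31.4 and 29.8 in untreated DRD5-/- and 32.3, 33.5 and 36.6 in DA-treated DRD5-/- BMDMs. DA-treated WT libraries were below the other 9 by a wide gap, and Ifitm6 fell by 2.75 (SE 0.072, adjusted p = 2.55e-13). Ifitm3, which stops viruses in endosomes, stood at 1024, 974 and 917 in untreated WT, 477, 485 and 488 in DA-treated WT, 788, 795 and 821 in untreated DRD5-/- and 749, 755 and 746 in DA-treated DRD5-/- BMDMs. Ifitm3 fell by 1.0 (SE 0.032, adjusted p = 2.23e-12), to about 0.498 of its level. Ifitm2 stood at 625, 609.8 and 616 in untreated WT, 410.5, 395 and 425 in DA-treated WT, 550.0, 541 and 541 in untreated DRD5-/- and 523, 524 and 519 in DA-treated DRD5-/- BMDMs, and it fell by 0.59 (SE 0.025, adjusted p = 3.85e-11). In M1 none of these 3 was past the threshold with DA, save Ifitm6, which was higher, under median-of-ratios scaling.

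Irgm1 (chr11:48865245-48871420), the IRG gene that controls the others, stood at 43.7, 45.4 and 46.5 in untreated WT, 25.5, 25.1 and 26.1 in DA-treated WT, 32.6, 32.3 and 32.9 in untreated DRD5-/- and 35.0, 36.4 and 36.4 in DA-treated DRD5-/- BMDMs. Irgm1 fell by 0.80 (SE 0.030, adjusted p = 1.12e-11), and again the DA-treated WT libraries were the lowest. Gbp2 stood at 7.29, 7.48 and 7.10 in untreated WT, 3.80, 3.38 and 4.44 in DA-treated WT, 4.18, 4.06 and 4.74 in untreated DRD5-/- and 6.23, 6.65 and 6.91 in DA-treated DRD5-/- BMDMs. It fell by 0.77 (SE 0.073, adjusted p = 2.65e-07), and its level in M2 was a small fraction of that in M1. Gbp3 fell by 0.46 and Gbp6 by 0.54. Gbp3 reached an FPKM of 1 in no DA-treated WT library (0.81 to 0.99), so that its fall lies near the level of the filter. Gbp6 reached an FPKM of 1 only in the 3 untreated WT libraries and passed the filter through them, so that it had to differ.

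**Figure D4:**
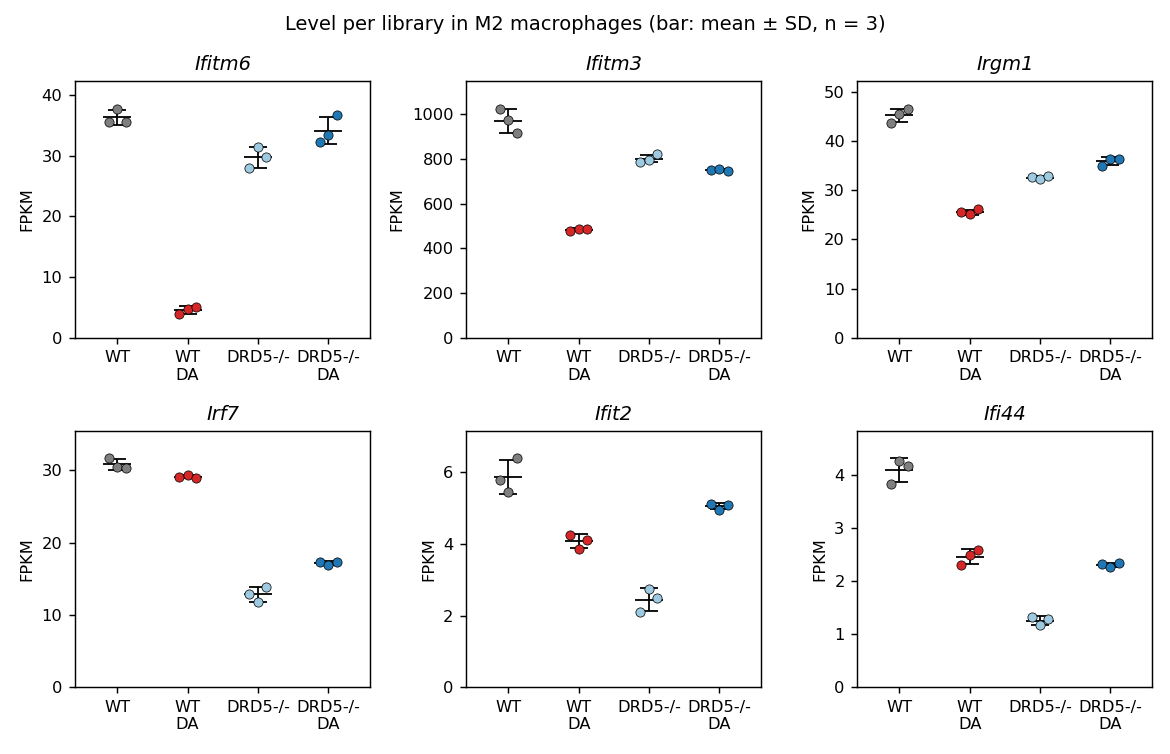
FPKM of 6 members in each M2 library (vertical axis from 0), by genotype and treatment (horizontal), with the mean and SD of the 3 libraries as bars. DA-treated WT libraries are lowest for Ifitm6, Ifitm3 and Irgm1, and untreated DRD5-/- libraries are lowest for Irf7, Ifit2 and Ifi44.

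All 3 Ifit genes tested in M2 fell with DA in WT. Ifit1 stood at 5.90, 5.58 and 6.41 in untreated WT, 3.32, 3.59 and 3.46 in DA-treated WT, 2.63, 2.63 and 2.97 in untreated DRD5-/- and 4.58, 3.66 and 4.10 in DA-treated DRD5-/- BMDMs. It fell by 0.64 (SE 0.069, adjusted p = 1.10e-06). Ifit3 stood at 8.20, 9.41 and 8.52 in untreated WT, 5.52, 5.55 and 5.82 in DA-treated WT, 3.71, 3.61 and 4.16 in untreated DRD5-/- and 6.27, 6.56 and 6.25 in DA-treated DRD5-/- BMDMs. It fell by 0.55 (SE 0.056, adjusted p = 6.22e-07), the opposite direction to its change in M1. Ifit2 fell by 0.43, Ifi44 by 0.56, Rsad2 by 0.54 and Ddx58, which encodes the RNA sensor RIG-I, by 0.32. For each of these genes the WT groups did not overlap.

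Of the IRFs, Irf8 stood at 77.9, 78.2 and 76.3 in untreated WT, 55.2, 55.5 and 55.8 in DA-treated WT, 76.5, 77.5 and 75.8 in untreated DRD5-/- and 78.1, 76.1 and 77.6 in DA-treated DRD5-/- BMDMs. Irf8 fell by 0.47 (SE 0.022, adjusted p = 1.39e-10), the one IRF past the threshold with DA in WT under both stimuli. Irf7 and Irf9 were also lower in all DA-treated than in all untreated WT libraries under both stimuli, without passing it, and Irf4 was not tested in M1. Irf1 stood at 54.7, 54.6 and 54.1 in untreated WT, 38.0, 39.6 and 39.4 in DA-treated WT, 51.8, 52.9 and 51.4 in untreated DRD5-/- and 55.9, 56.3 and 56.2 in DA-treated DRD5-/- BMDMs, and it fell by 0.47 (SE 0.024, adjusted p = 3.55e-10). Irf4 fell by 0.47 (SE 0.071, adjusted p = 3.68e-05) from 3.99 ± 0.34 to 2.60 ± 0.15 (SD, n = 3). Irf3 stood at 25.0, 25.1 and 28.2 in untreated WT, 26.1, 26.4 and 27.2 in DA-treated WT, 29.8, 28.2 and 27.7 in untreated DRD5-/- and 26.3, 26.3 and 26.3 in DA-treated DRD5-/- BMDMs, with overlapping groups in WT. Irf9 stood at 30.4, 32.0 and 31.1 in untreated WT, 25.1, 26.4 and 27.6 in DA-treated WT, 25.5, 25.1 and 25.5 in untreated DRD5-/- and 30.2, 27.6 and 26.8 in DA-treated DRD5-/- BMDMs; its change of −0.23 (SE 0.044, adjusted p = 2.40e-04) was under 1.2-fold, and past it with median-of-ratios scaling. Irf2, Irf5 and Irf7 were not past the threshold either.

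The 3 members that rose did so from low or moderate levels. Oas1g, one of the mouse OAS1 copies, stood at 10.2, 9.46 and 9.50 in untreated WT, 14.4, 14.5 and 13.8 in DA-treated WT, 6.01, 5.98 and 5.31 in untreated DRD5-/- and 6.95, 5.76 and 7.30 in DA-treated DRD5-/- BMDMs. It rose by 0.51 (SE 0.068, adjusted p = 1.09e-05), and none of the other 6 tested Oas genes was past the threshold. Gbp7 stood at 0.62, 0.62 and 0.76 in untreated WT, 1.16, 1.18 and 1.1 in DA-treated WT, 0.45, 0.35 and 0.44 in untreated DRD5-/- and 0.64, 0.51 and 0.63 in DA-treated DRD5-/- BMDMs. It rose by 0.37 (SE 0.068, adjusted p = 2.38e-04), but only the DA-treated WT libraries reached an FPKM of 1, so that it passed the filter through them and had to differ. It lost the threshold without either of 2 untreated or 2 DA-treated WT libraries. Irf2bpl stood at 10.2, 10.3 and 9.76 in untreated WT, 13.7, 12.6 and 12.7 in DA-treated WT, 11.3, 11.3 and 11.2 in untreated DRD5-/- and 11.1, 11.1 and 11.6 in DA-treated DRD5-/- BMDMs, and it rose by 0.34 (SE 0.039, adjusted p = 2.46e-06).

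Without DA, the M2 DRD5-/- BMDMs held less RNA of 23 members than WT, among them Irf7, Ifi44, Usp18 and all tested Ifit genes. Of 42 tested members, these 23 were past the threshold (54.8%), beside 5.51% of all genes, and none was higher, while 4.15% of all genes were lower. This comparison shares the untreated WT libraries with that of DA in WT. The members' median difference was −0.36 and that of all genes −0.033. With median-of-ratios scaling 21 were past it, all lower; Ifitm3 and Irf9 were then not, and the share of all genes past it that were higher moved from 24.8% to 37.7%. The 23 members were 6 of 7 tested Oas, all 3 Ifit, 3 of 4 IRG, 2 of 6 Gbp, 1 of 4 Ifitm and 2 of 8 Irf genes and 6 of the 7 single genes (Bst2, at −0.22, was under the fold limit). Gbp6 is counted among the 23 although it entered the test through the untreated WT libraries alone and so had to differ. Oasl1 reached an FPKM of 1 in the 6 WT libraries and 1 DA-treated DRD5-/- library and in no untreated DRD5-/- library, so that its call rests in part on the filter.

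Irf7 had the largest difference on the log2(FPKM + 1) scale, and with a pseudocount of 0.1 Ifi44 (−1.62), Oasl1 (−1.34) and Usp18 (−1.33) had larger ones than Irf7 (−1.26). Irf7 stood at 31.6, 30.4 and 30.3 in untreated WT, 29.1, 29.3 and 28.9 in DA-treated WT, 12.9, 11.8 and 13.8 in untreated DRD5-/- and 17.3, 16.9 and 17.3 in DA-treated DRD5-/- BMDMs. Irf7 was lower by 1.2 (SE 0.044, adjusted p = 4.50e-10) in untreated DRD5-/- than in WT, with levels in DRD5-/- below all WT libraries, treated or not. Usp18 stood at 8.78, 8.53 and 9.70 in untreated WT, 7.42, 8.09 and 7.03 in DA-treated WT, 3.27, 3.93 and 3.36 in untreated DRD5-/- and 5.08, 4.75 and 5.23 in DA-treated DRD5-/- BMDMs. It was lower by 1.15 (SE 0.067, adjusted p = 3.01e-08). Ifi44 stood at 3.84, 4.27 and 4.17 in untreated WT, 2.31, 2.49 and 2.59 in DA-treated WT, 1.33, 1.17 and 1.28 in untreated DRD5-/- and 2.33, 2.26 and 2.34 in DA-treated DRD5-/- BMDMs, and it was lower by 1.17 (SE 0.056, adjusted p = 4.70e-09). Ifit3 was lower by 1.01 (SE 0.056, adjusted p = 2.02e-08), and its untreated DRD5-/- libraries were the lowest of the 12. Ifit2 (lower by 1.0), Oasl2 (−0.91), Oas3 (−0.91), Ifit1 (−0.90), Rsad2 (−0.78) and Isg15, which encodes a ubiquitin-like protein (−0.76), followed. Oas1a and Oas1g, which may share reads, were lower by 0.59 and 0.66.

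Among the IRFs, Irf9 was lower by 0.29 (SE 0.044, adjusted p = 2.65e-04), a call that most left-out libraries of these groups ended, while Irf1 (−0.064), Irf3 (0.13) and Irf8 (−0.016) were not past the threshold. The Ifitm genes, which moved most with DA in WT, differed little by genotype: Ifitm3 was lower by 0.28 (SE 0.032, adjusted p = 2.53e-05), and Ifitm2 (−0.18) and Ifitm6 (−0.28) were not past the threshold.

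Fibroblast and stroma markers moved with the M2 groups. Their summed FPKM was 117.6 to 120.4 in untreated WT, 93.1 to 94.6 in DA-treated WT, 73.8 to 75.9 in untreated DRD5-/- and 80.6 to 81.3 in DA-treated DRD5-/- libraries. All 4 markers (Col1a1, Col1a2, Pdgfra and Dcn) were above an FPKM of 1 and none was at 0. The 8 macrophage markers summed to 10719 to 10890 in untreated WT, 8349 to 8388 in DA-treated WT and 10843 to 11297 in DRD5-/- libraries. Over the M2 libraries, Lyz2, the most expressed of the 8, ranged from 4733 to 7337, Adgre1 from 411 to 457 and Cd14 from 56.2 to 159. The sum follows Lyz2 most and is not a count of cells. The part of other cells in the M2 results was not tested.

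In M2 DRD5-/- BMDMs, all 3 tested Ifit, 3 of 7 Oas, 2 of 6 Gbp and 1 of 4 IRG genes, Irf7 and 5 of the 7 single genes rose with DA. Of 42 tested members, 15 were past the threshold (35.7%), beside 4.02% of all genes, and all 15 were higher, beside 3.37% of all genes. The members' median change was 0.18 and that of all genes 0.0073. With median-of-ratios scaling the 15 were again all higher, while the share of all genes past the threshold that were higher moved from 83.8% to 73.3%. The untreated DRD5-/- libraries stand on the low side of both this comparison and the one by genotype, so the 2 are not independent.

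Ifit2 stood at 5.77, 5.44 and 6.39 in untreated WT, 4.25, 3.87 and 4.12 in DA-treated WT, 2.11, 2.74 and 2.49 in untreated DRD5-/- and 5.11, 4.96 and 5.08 in DA-treated DRD5-/- BMDMs. It rose by 0.82 (SE 0.069, adjusted p = 2.92e-06) with DA in DRD5-/-, and the treated DRD5-/- libraries still lay below all untreated WT libraries. Ifit3 rose by 0.61 (SE 0.056, adjusted p = 5.96e-06) and Ifi44 by 0.55 (SE 0.056, adjusted p = 1.61e-05). Oas3 stood at 16.7, 17.6 and 16.7 in untreated WT, 18.4, 18.3 and 18.3 in DA-treated WT, 8.94, 8.11 and 8.78 in untreated DRD5-/- and 12.8, 12.9 and 13.0 in DA-treated DRD5-/- BMDMs. It rose by 0.53 (SE 0.038, adjusted p = 6.64e-07), with DA-treated DRD5-/- libraries between those of untreated DRD5-/- and WT. Gbp2 rose by 0.51, Oas2 by 0.46, Ifit1 by 0.45, Gbp9 by 0.43, Usp18 by 0.42, Rsad2 by 0.40, Ifih1, the RNA sensor MDA5, by 0.40, Irf7 by 0.39, Irgm2 by 0.38, Oasl2 by 0.37 and Ddx58 by 0.31. The calls of Gbp2, Ifit1 and Usp18 each ended when 1 of several libraries was left out. No Ifitm gene was past the threshold. The genes of the tandem GAS and ISRE promoters did not move as one: Irgm2 rose, Igtp (0.037) and Tgtp2 (0.18) were not past the threshold, and Tgtp1 was not tested in M2.

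Ddx58, Gbp2, Ifi44, Ifit1, Ifit2, Ifit3 and Rsad2 fell with DA in M2 WT and rose with DA in M2 DRD5-/-. These 7 are 36.8% of the members past the threshold in WT and 46.7% of those in DRD5-/-, and no member was past it in the same direction in both. The same overlap was not counted over all genes, so that it cannot be called particular to the members. The difference between the effects, which uses the same libraries, was past the threshold for 26 of 42 members (61.9%), beside 43.2% of all genes. For 25 of them, beside 20.4% of all genes, the change was more negative in WT (Gbp6, with a sign that the filter fixed, included), and for 1, Irf2bpl, beside 22.8%, it was more positive, by 0.34 (SE 0.055, adjusted p = 9.32e-05). Ifitm6 differed by −2.95 (SE 0.10, adjusted p = 1.28e-11), Gbp2 by −1.29 (SE 0.10, adjusted p = 7.23e-08), Ifit2 by −1.25 (SE 0.097, adjusted p = 5.32e-08) and Ifit3 by −1.16 (SE 0.079, adjusted p = 1.36e-08). Irf7, whose level did not pass the threshold with DA in WT, differed by −0.47 (SE 0.063, adjusted p = 1.30e-05).

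**Figure D5:**
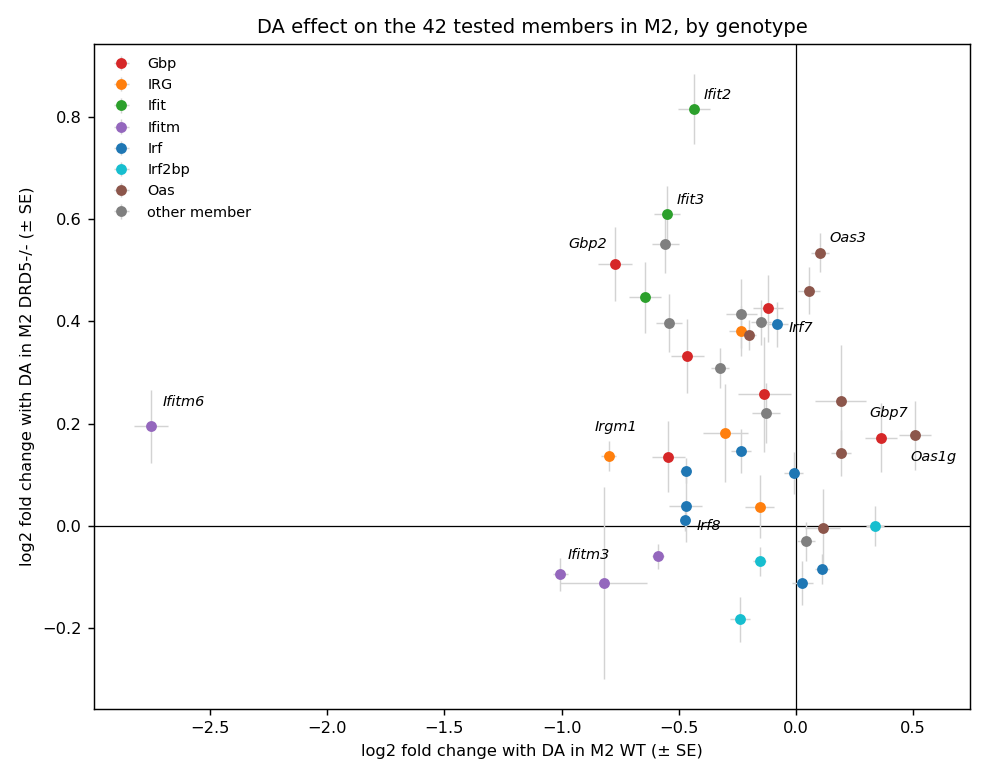
Change with DA on the log2(FPKM + 1) scale (± SE) in M2 WT (horizontal) and M2 DRD5-/- BMDMs (vertical) for the 42 tested members, coloured by family; the genotypes share no library. Ifit genes and Gbp2 lie at the upper left, lower in WT and higher in DRD5-/-, Ifitm6 and Ifitm3 lie far to the left, and Oas3 lies high near 0 on the WT axis.

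Genes around the members in the pathway were read from 5 lists of ligands, receptors with their JAKs and STATs, inhibitors, sensors with their adaptors, and further interferon-induced genes. Their counts stand beside the shares of all tested genes, which with DA were 4.73% higher and 9.6% lower in M1 WT and 25.9% higher and 20.4% lower in M2 WT. Of the 21 interferon genes, 15 were listed in M1 and 9 in M2, and only Ifnb1 in M1 was tested. Ifnb1, which encodes interferon-β, stood at 0.88, 0.94 and 1.01 in untreated WT, 0.51, 1.52 and 0.76 in DA-treated WT, 0.67, 1.0 and 1.26 in untreated DRD5-/- and 0.99, 0.74 and 1.41 in DA-treated DRD5-/- BMDMs, with overlapping groups. Of 11 tested receptors, JAKs and STATs in M1 WT, DA was followed by a fall of 2, Stat3 (by 0.36) and Jak2 (by 0.35), and Stat2 (−0.055) was not past the threshold. In M2 WT, 2 of the 11 rose and 3 fell, near the shares of all genes. Ifnar2, a chain of the type I interferon receptor, rose by 0.44, while Ifngr2, a chain of the IFN-γ receptor, fell by 0.40, Stat3 by 0.84 and Stat2 by 0.39. Stat2 stood at 17.9, 19.4 and 19.1 in untreated WT, 14.2, 14.0 and 14.1 in DA-treated WT, 11.8, 12.7 and 12.8 in untreated DRD5-/- and 16.6, 16.4 and 15.4 in DA-treated DRD5-/- BMDMs, and it rose by 0.35 with DA in DRD5-/- and was lower by 0.56 in untreated DRD5-/- than in WT.

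Of 12 tested inhibitors, 3 fell in M1 WT, beside 9.6% of all genes. Socs3 fell by 0.59, Socs1, the main brake on IFN-γ signalling, by 0.32 and the phosphatase Ptpn1 by 0.28, and Ptpn6 (−0.17) was not past the threshold. In M2 WT, Socs1 rose by 0.36 and 3 fell, Ptpn1 by 0.77, Pias1 by 0.51 and Pias2 by 0.29. Of the 20 sensors, adaptors and kinases, 2 rose and 3 fell in M1 WT, beside 4.73% and 9.6% of all genes: Tlr4, the LPS receptor, rose by 0.35 and Tmem173, which encodes STING, by 0.27, and Tlr9, a sensor of microbial DNA, fell by 0.41 and Traf6 by 0.35, along with Ticam2 (−0.26). In M2 WT, 10 of the 20 fell, beside 20.4% of all genes. The 1 that rose, beside 25.9%, was Cgas, the DNA sensor, with a change of 0.76. Tlr9 stood at 18, 18 and 18.4 in untreated WT, 4.37, 4.38 and 4.46 in DA-treated WT, 14.5, 14.2 and 15.3 in untreated DRD5-/- and 17.1, 18.8 and 17.8 in DA-treated DRD5-/- BMDMs, and it fell by 1.82. Tlr7, a sensor of single-stranded RNA, fell by 1.19 and Ticam2, an adaptor of Tlr4, by 0.96.

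Of the further interferon-induced genes, 1 of 46 tested rose in M1 WT and none fell. This was Ly6a, at 539, 522 and 554 in untreated WT, 869, 791 and 818 in DA-treated WT, 486, 507 and 471 in untreated DRD5-/- and 483, 488 and 457 in DA-treated DRD5-/- BMDMs, which rose by 0.62, and the abundant chemokine genes Cxcl10 (−0.054) and Cxcl9 (−0.23) and Slfn2 (−0.0033) were not past the threshold. In M2 WT, 24 of 39 fell and 2 rose, beside 20.4% and 25.9% of all genes, with a median change of −0.38 beside 0.031 for all genes. Ciita, the switch of MHC class II genes, fell by 2.36, Samhd1, which depletes nucleotides, by 0.97, Slfn2 by 0.91 and the IRG gene Ifi47 by 0.87. In M2 DRD5-/-, 13 of the 39 were past the threshold with DA, all higher (median 0.23), beside 3.37% of all genes. In untreated DRD5-/-, 27 of the 39 were lower than in WT (median −0.43), beside 4.15% of all genes. In M2 DRD5-/-, 1 of 11 receptors, JAKs and STATs, 0 of 12 inhibitors and 3 of 20 sensors rose with DA and none fell, and 2, 1 and 5 of them were lower in untreated DRD5-/- than in WT. None of the 5 lists had a call for the DA effect in M1 DRD5-/- or between the untreated M1 genotypes.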

How the data were processed

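RNA-seq of 24 BMDM libraries was analysed, 3 in each of 8 groups taken from the sample labels. Sequencing was on a BGISEQ-500, and the authors mapped the filtered reads and deposited FPKM per gene with no counts. The study's methods name HISAT2 and GRCm38.p5, and the submitters' processing notes Bowtie2 2.2.5 and GRCm38.p6; the counter and annotation are not given in the sources used here. FPKM from reads shared by paralogs cannot be resolved.

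FPKM were used as deposited. Genes reaching an FPKM of 1 in 3 or more of the 12 libraries per stimulus were fitted in limma 3.58.1 (R 4.3.3) on log2(FPKM + 1), a pseudocount of 1, with 4 group means and an intensity trend, and M1 and M2 apart. P-values were Benjamini-Hochberg adjusted over all tested genes, and the threshold (adjusted p under 0.001, 1.2-fold) is the study's. The fit was tested on simulated data. Libraries with the same replicate number did not deviate together (mean r of −0.021 in M1 and −0.016 in M2), and the fit has no pairing. Alternatives were an adjusted p of 0.05, a replicate block, scaling by the median of ratios, no filter, a pseudocount of 0.1 and each library left out.

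Members, gene lists and tests were chosen with earlier results of these data known. Values in every library are given, per stimulus, for up to 6 members with the largest rise and 6 with the largest fall past the threshold with DA in WT, up to 4 in each direction with DA in DRD5-/- and by genotype, and for Irf1, Irf3, Irf7, Irf8 and Irf9. Of each pathway list, up to 4 genes per stimulus are named, those with the largest change with DA in WT past the threshold or else the most expressed; other named genes were chosen after their values were seen. Values of some genes are not reported here. Promoter sequences and coordinates are those of RefSeq (GRCm38.p6), matched by gene ID; promoters on chromosome 18 are not printed. Python 3.11.15 with pandas and matplotlib was used for tables and plots.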

Additional observations from a re-analysis of the deposited data

Results flagged for a closer look

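The effect of DA differed between the genotypes for 12 members in M1, by limma's test of the difference itself (change in WT less change in DRD5-/-, log2). The difference was 0.95 for Gbp8, 0.77 for Ifit1bl1, 0.47 for Gbp4, 0.39 for Gbp10, 0.38 for Ifit3, 0.38 for Ifit3b, 0.31 for Igtp, 0.29 for Gbp6 and 0.27 for Gbp2. It was −0.45 for Usp18, −0.41 for Irf8 and −0.34 for Oasl1.

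The same test passed the threshold for 26 members in M2. The difference was −2.95 for Ifitm6, −0.91 for Ifitm3 and −0.53 for Ifitm2. Among the Ifit and Gbp genes it was −1.25 for Ifit2, −1.16 for Ifit3, −1.09 for Ifit1, −1.29 for Gbp2, −0.80 for Gbp3, −0.68 for Gbp6 and −0.55 for Gbp9. Among the IRG and Oas genes it was −0.94 for Irgm1, −0.62 for Irgm2, −0.57 for Oasl2, −0.43 for Oas3 and −0.41 for Oas2. Among the IRFs it was −0.58 for Irf1, −0.51 for Irf4, −0.48 for Irf8, −0.47 for Irf7 and −0.38 for Irf9. For the rest it was −1.11 for Ifi44, −0.94 for Rsad2, −0.65 for Usp18, −0.63 for Ddx58, −0.55 for Ifih1 and 0.34 for Irf2bpl.

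Gbp6 and Ifit3 were past the threshold with DA in WT in opposite directions under the 2 stimuli. The log2 change was 0.28 in M1 and −0.54 in M2 for Gbp6, and 0.31 in M1 and −0.55 in M2 for Ifit3. The difference between the stimuli was not tested. Gbp6 entered the M2 test through its untreated WT libraries alone.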

How the results depend on the processing

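The counts of members past the threshold stayed within 1.5 times those of the report in all alternatives run, with 1 exception: between the untreated M1 genotypes the count went from 0 to 1, Irf2, at an adjusted p under 0.05 or without DA-treated M1 WT replicate 3. Leaving out each library in turn gave 11 to 14 members with DA in M1 WT, 0 in M1 DRD5-/-, 10 to 14 for the difference in M1, 0 to 1 between the untreated M1 genotypes, 18 to 20 with DA in M2 WT, 11 to 15 in M2 DRD5-/-, 25 to 26 for the difference in M2 and 21 to 23 between the untreated M2 genotypes. Same-numbered libraries did not pair (between-group r averaged −0.021 in M1 and −0.016 in M2), and the fit with a replicate block gave 13, 0, 12 and 0 members in M1 and 19, 14, 25 and 22 in M2 for the same comparisons in the same order. For the members whose values are given per library, 1050 refitted values past the threshold stayed past it and 38 lost it, none with a change of sign. Among the latter, Usp18 with DA in M2 DRD5-/- gave 0.38 to 0.42 with no filter, a replicate block, or without untreated DRD5-/- replicate 1 or 3 or DA-treated DRD5-/- replicate 1 or 3. Ifit1 with DA in M2 DRD5-/- gave 0.38 to 0.45 with no filter or without untreated replicate 1 or 2 or DA-treated replicate 1 or 3, and Gbp2 0.48 to 0.51 with no filter or without untreated replicate 1 or 2 or DA-treated replicate 3. Gbp7 with DA in M2 WT gave 0.35 to 0.36 without untreated or DA-treated replicate 1 or 2. Between the untreated M2 genotypes, Irf9 gave −0.29 to −0.24 with no filter, scaling, the replicate block or without WT replicate 2 or 3 or any DRD5-/- replicate, and Ifitm3 −0.24 to −0.23 with scaling or without WT replicate 1. For the difference in M1, Ifit3b gave 0.34 to 0.38 with no filter or without untreated WT replicate 1 or 2, DA-treated WT replicate 1 or 3, untreated DRD5-/- replicate 1 or 3 or DA-treated DRD5-/- replicate 1. Gbp2b with DA in M1 WT gave −0.22 with scaling. In 3 refits a value passed the threshold that had not before, Gbp9 for the difference in M1 (0.32 without DA-treated DRD5-/- replicate 3) and Irf9 with DA in M2 WT (−0.27 with scaling or without DA-treated WT replicate 3). The cause of these changes was not tested. A sign was read only for values past the threshold in either fit; 27 others, all within 0.029 of 0, changed sign. The depth behind a value is unknown, and most Gbp genes in M2 lie near the FPKM of 1 at which genes entered the tests.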
